A study of Mus musculus with 17 samples.

Results

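Male germ cells silence the X chromosome during meiosis, and several housekeeping genes of the X have an autosomal retrogene, a copy made from a processed mRNA, that is used in the testis in their place. H3.3 occupancy was examined here at 7 such retrogenes, Pgk2, Pdha2, Rpl10l, Utp14b, Cstf2t, Rbmxl2 and Cetn1, and at their X-linked parents, Pgk1, Pdha1, Rpl10, Utp14a, Cstf2, Rbmx and Cetn2. The retrogenes were chosen by name under a rule that uses no measured value, though with earlier results of these data known. They are 7 of the 55413 genes that GENCODE M21 annotates on the 21 chromosomes of mm10. A gene was counted where the list of H3.3 peaks held a row within 1 kb of one of its transcript starts or in the gene itself.

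H3.3 was profiled by CUT&RUN, where antibody-bound chromatin is cut free by a tethered nuclease and its DNA sequenced, in mouse pachytene spermatocytes purified by sedimentation. There were 2 libraries labelled Arid1aWT and 3 labelled Arid1acKO, and 12 ARID1A libraries of the same series were not analysed here. Arid1a cKO males carried Arid1a fl/fl with a Stra8-Cre transgene, whose testis-specific promoter is active in spermatogonia, and Arid1a WT males carried Arid1a fl/fl or fl/+, with adult animals pooled for each purification. Recombination was incomplete per the study's methods, so the cKO fraction also held cells with ARID1A, and mutant cells stopped in mid-pachynema. The lists hold no measure of cell identity, so the label of the cells was not checked.

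ARID1A is a DNA-binding subunit of the BAF chromatin remodeler. H3.3 is a histone variant that is deposited outside of replication, commonly at active promoters, and that loads onto the X and Y chromosomes as these are silenced in meiosis. The retrogenes serve basic functions, namely energy metabolism (Pgk2, Pdha2), ribosomes (Rpl10l, Utp14b), processing of mRNA (Cstf2t, Rbmxl2) and the centriole (Cetn1).

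In Arid1a cKO, 3 of the 7 retrogenes had an H3.3 row, at Rbmxl2, Utp14b and Cstf2t. A row lay at 30.9% of the 20807 autosomal protein-coding genes, so that the count at the retrogenes is not set apart from this background. No row lay at Pgk2, Pdha2, Rpl10l or Cetn1. Of the 7 parents on the X, 3 had a cKO row, Pgk1, Pdha1 and Cstf2, against 21.2% of 948 X-linked protein-coding genes. Retrogene and parent both had a row in 1 pair, Cstf2t and Cstf2. The retrogene alone had one in 2 pairs, the parent alone in 2 pairs and neither in 2 pairs, Rpl10l with Rpl10 and Cetn1 with Cetn2. In Arid1a WT, 0 of 7 retrogenes and 0 of 7 parents had a row. This list held a row at 0.00961% of autosomal protein-coding genes, which is 2 genes, and at 0% of those on the X, so that nearly any gene lacks one.

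Each list combines the replicates of 1 genotype. A gene therefore has 1 value per genotype, with no spread between replicates and no test of the genotype, and the depth of the libraries is unknown. Each peak carried 1 fold and 1 -log10 q, and whether these describe 1 library or several is not given in the sources used here. The Arid1a WT list held 228 regions, 4 of them autosomal and none with a fold enrichment over IgG under 4.85. The Arid1a cKO list held 6552 regions after overlapping rows were merged, 6179 of them autosomal, with fold from 2.80 to 14.9. A gene without a row is therefore one at which no peak was listed, which does not show that H3.3 was absent. In pooled cells, a low signal in all cells and a strong signal in few cells cannot be told apart.

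**Figure D1:**
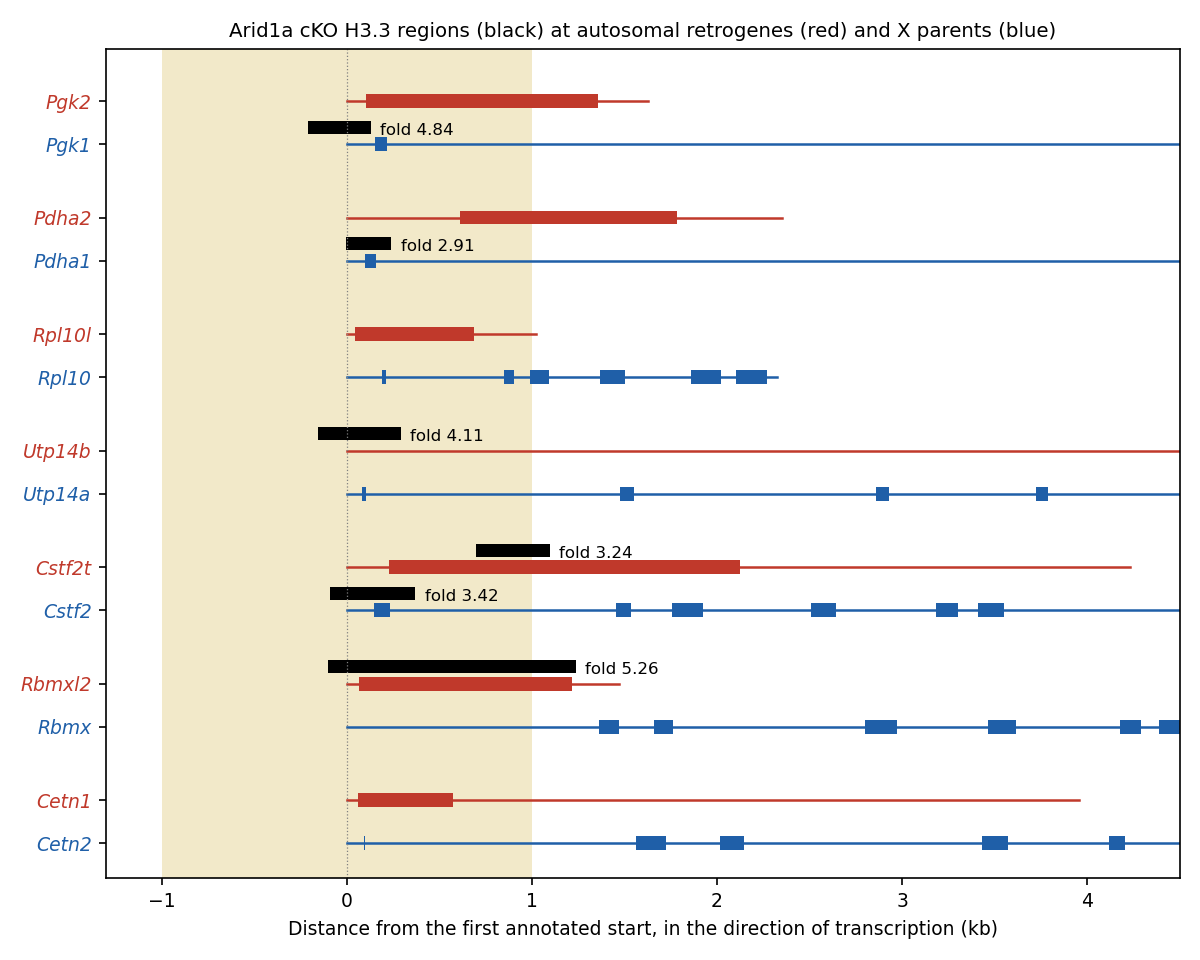
Arid1a cKO H3.3 regions (black bars, labelled with their fold enrichment over IgG) at the 7 retrogenes (red) and their X parents (blue). The x axis gives the distance from the first annotated start in kb, thin lines are genes, boxes are coding sequence, and the shaded band marks 1 kb either side of the first start. The regions of Utp14b and Rbmxl2 cover a GENCODE start, as do those plotted at the parents, whereas that of Cstf2t begins 700 bp into the gene. The Utp14b region misses both curated RefSeq starts, by 58 and 108 bp, and the Pdha1 region misses its own by 13 bp. A further Cstf2 region, 15323 bp from the start, lies beyond the plotted range.

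Rbmxl2 (ENSMUSG00000073894.1) encodes hnRNP G-T, a testis RNA-binding protein that acts in splicing. It is a single-exon gene of 1472 bp on the plus strand at chr7:107209445-107210916. The region there, chr7:107209345-107210683, reached from 100 bp upstream of the start to 1238 bp downstream of it, and covered all 1155 bp of the coding sequence. Its fold was 5.26 and its -log10 q was 6.26, both the highest of the 3 retrogenes with a row. Of the 6179 autosomal cKO regions, 82.5% had a fold at or below this value, and 97.6% had a width at or below its 1339 bp, where the median was 420 bp. The region was listed as 3 rows of the same peak. The longest spanned all of it, and the shorter rows covered 47 bp at its upstream end and 354 bp at its downstream end. Thus 401 of its 1339 bp lay in 2 or more rows, against 347 of 450 bp at Utp14b. Rbmx (chrX:57383530-57393036), the parent, encodes hnRNP G and had no row, the nearest region lying 111 kb away.

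Utp14b (ENSMUSG00000079470.8) encodes a protein of the small-subunit processome, which makes 18S ribosomal RNA, and its loss in the jsd mouse blocks the differentiation of spermatogonia. GENCODE places it on the plus strand at chr1:78658038-78671512, with 3 or 4 exons. The region, chr1:78657883-78658332, was 450 bp wide with a fold of 4.11 and a -log10 q of 2.68, and 55.5% of autosomal regions had a fold at or below it. It covered the first start of Utp14b, at 78658038, and ended 108 bp before the second, at 78658440. The coding sequence, which begins 6349 bp downstream of the first start, held no row. The same region lay 58 bp downstream of the start of Acsl3 (chr1:78657825-78707743, plus strand), a long-chain acyl-CoA synthetase gene whose span holds all of Utp14b. Curated RefSeq transcripts start Utp14b itself at 78657825, the first base of Acsl3, so that H3.3 at the start of Utp14b and at that of Acsl3 cannot be told apart. Utp14a (chrX:48256862-48282453), the parent, had no row. A region with fold 3.44 lay 2203 bp beyond its end, at a start of the long noncoding RNA gene 9530027J09Rik.

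Cstf2t (ENSMUSG00000053536.7) encodes tauCstF-64, the testis form of the cleavage stimulation factor subunit that binds the RNA downstream of the poly(A) site. It is a single-exon gene on the plus strand at chr19:31082837-31087069, inside the span of Prkg1 (chr19:30564489-31765033, minus strand), a cGMP-dependent protein kinase gene. The region, chr19:31083537-31083935, was 399 bp wide and lay within the coding sequence, from 700 to 1098 bp downstream of the start. Its fold of 3.24 and -log10 q of 2.74 placed it low in the list, with 21.3% of autosomal regions at or below that fold. It was written as 1 row, as were 14.1% of all cKO regions. Both other retrogenes had overlapping rows.

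The region of Cstf2t was the only one of the 3 that missed every GENCODE start of its retrogene, and it differed in place from the regions of the parent. Cstf2 (chrX:134059187-134086819) had a region over its first start with fold 3.42 and -log10 q of 3.09, and a second within the gene, 15323 bp downstream, with fold 2.91 and 1 row. On the aligned coding sequences, the region of Cstf2t spanned codons 158 to 290 and the second region of Cstf2 codons 406 to 478, with 0 aligned bases in common. All 50-mers of both regions occurred once in the genome.

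The other parents with a row had it at a GENCODE start. Pgk1 (chrX:106187100-106203699), the somatic phosphoglycerate kinase gene of glycolysis, had a region from 207 bp upstream to 129 bp downstream of its first start, with fold 4.84 and -log10 q of 4.33. This was the highest fold among the parents, and 94.1% of the 370 regions of the X had a fold at or below it. Pdha1 (chrX:160122209-160138413), which encodes the E1 alpha subunit of pyruvate dehydrogenase, had a region over its first GENCODE start with fold 2.91 and -log10 q of 2.11. That exact fold, 2.90612 in the list, was carried by 8.64% of all cKO peaks and 14.9% of those on the X, and the second region of Cstf2 had it too.

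**Figure D2:**
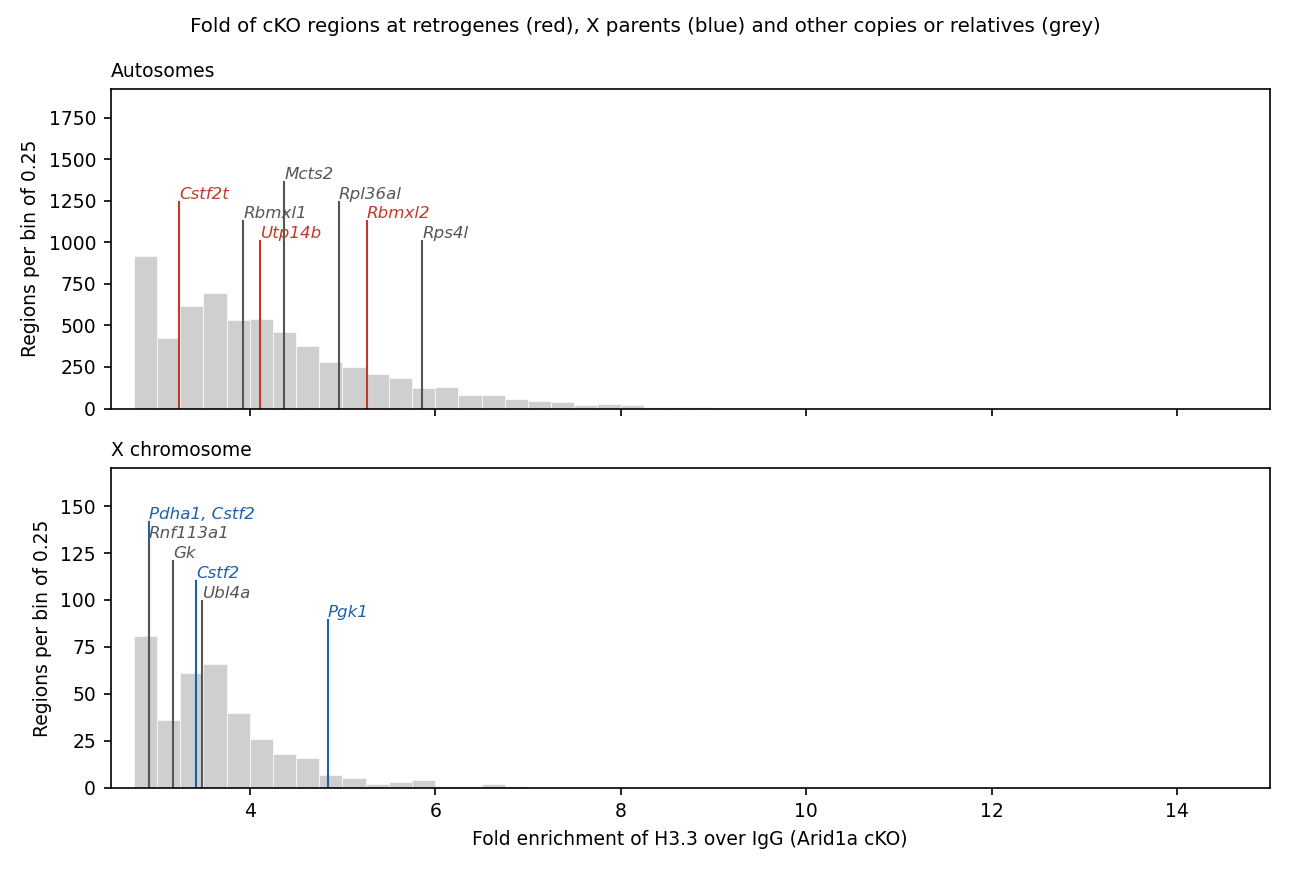
Fold enrichment over IgG of the Arid1a cKO regions on the autosomes (upper) and the X chromosome (lower), as the number of regions in bins of 0.25 (grey bars), with the retrogenes (red), X parents (blue) and other copies and their X relatives (dark grey) as vertical lines. Rbmxl2 at 5.26 lies in the upper part of the autosomal regions, Utp14b at 4.11 near the median of 3.95 and Cstf2t at 3.24 in the lower part.

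The 4 retrogenes without a row lay 165 to 1110 kb from the nearest cKO region, with Cetn1 the closest. Pgk2 (chr17:40207015-40208640, minus strand), the phosphoglycerate kinase of sperm glycolysis, was 757 kb from the nearest cKO region. Pdha2 (chr3:141210004-141212355, minus strand), the testis subunit of pyruvate dehydrogenase, was 697 kb from it. Rpl10l (chr12:66283379-66284401, minus strand), a protein of the large ribosomal subunit that male meiosis needs, was 1110 kb from it. Cetn1 (chr18:9615524-9619478, minus strand), a centrin of the centriole and basal body, was 165 kb from a region at Ccny. Among all autosomal coding genes the median distance was 33.2 kb, 33.3% lay more than 100 kb away and 11.6% more than 500 kb. These figures include the 30.9% of genes that had a row, which lie within 1 kb of a region. The 4 retrogenes here were picked for having none, so part of their distance follows from that choice. Pgk2, Pdha2 and Rpl10l are among the 11.6%, with 0 cKO regions within 500 kb on either side. Those intervals held few genes for Pdha2 and Rpl10l. Pdha2 had 1 other protein-coding gene within 500 kb, Rpl10l had 1 and Pgk2 had 10, whereas Rbmxl2 had 29 and a single region, its own.

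Of the parents without a row, Utp14a lay 2.2 kb from a cKO region, Rpl10 (chrX:74270812-74273135) 9.63 kb, Cetn2 (chrX:72913532-72918411) 88.2 kb and Rbmx 111 kb. The median over coding genes of the X, those with a row included, was 81.7 kb. Rpl10 and Cetn2 lay nearer to a region than their retrogenes did, whereas the retrogenes of Utp14a and Rbmx had a row. In Arid1a WT, a region lay on the chromosome of only 2 retrogenes, 47.5 Mb from Pdha2 and 111 Mb from Utp14b. On the X the nearest WT region was 7.98 to 74.9 Mb from the parents.

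**Figure D3:**
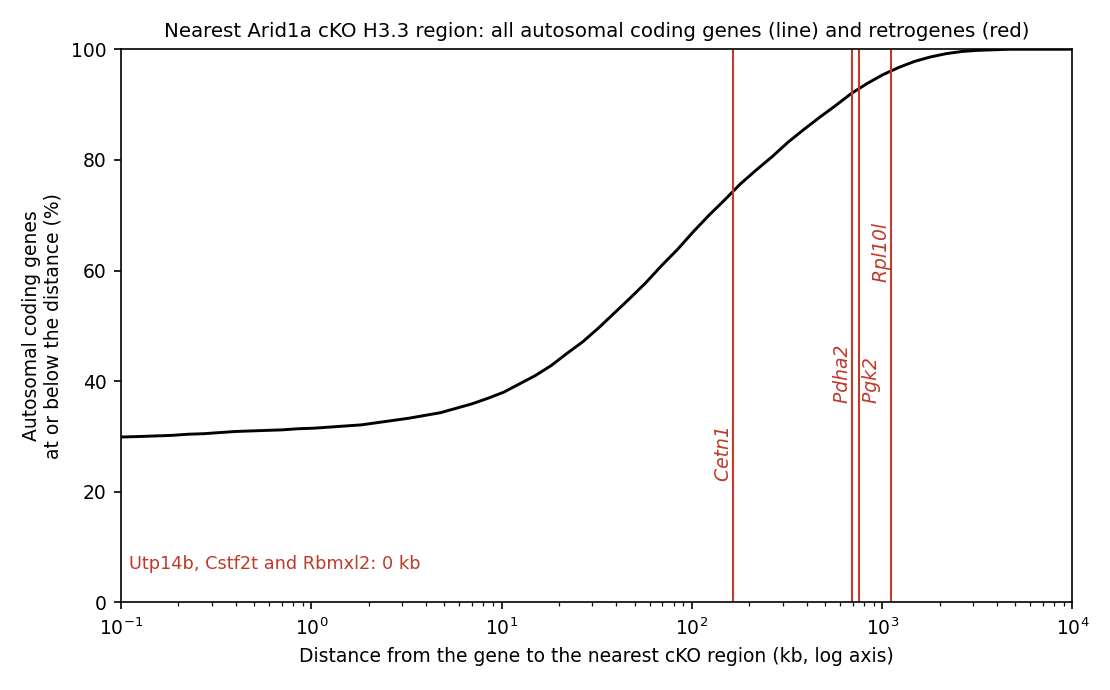
Share of autosomal protein-coding genes (black line, percent) that lie at or below a given distance from the nearest Arid1a cKO region (log axis, kb), with the retrogenes as red lines. The black line includes the genes that had a row. Cetn1 is at 165 kb, Pdha2, Pgk2 and Rpl10l lie at 697 to 1110 kb, and Utp14b, Cstf2t and Rbmxl2, at 0 kb, are named in the lower corner.

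The promoter windows are shown next, since the retrogenes with and without a row differed in them. Each runs from 250 bases before to 50 after a start as RefSeq places it on GRCm38.p6, written 5′ to 3′ on the strand of the gene, with CpG dinucleotides in capitals. First come the retrogenes with a cKO row, at chr7:107209195-107209494 (plus), chr1:78658190-78658489 (plus) and chr19:31082591-31082890 (plus).
Rbmxl2: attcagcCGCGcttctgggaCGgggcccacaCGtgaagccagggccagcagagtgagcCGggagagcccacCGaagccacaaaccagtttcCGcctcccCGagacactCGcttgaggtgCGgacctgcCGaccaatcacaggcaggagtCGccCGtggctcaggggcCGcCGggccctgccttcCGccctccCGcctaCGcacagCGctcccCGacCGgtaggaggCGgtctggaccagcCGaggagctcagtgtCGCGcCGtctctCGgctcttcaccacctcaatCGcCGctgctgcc
Utp14b: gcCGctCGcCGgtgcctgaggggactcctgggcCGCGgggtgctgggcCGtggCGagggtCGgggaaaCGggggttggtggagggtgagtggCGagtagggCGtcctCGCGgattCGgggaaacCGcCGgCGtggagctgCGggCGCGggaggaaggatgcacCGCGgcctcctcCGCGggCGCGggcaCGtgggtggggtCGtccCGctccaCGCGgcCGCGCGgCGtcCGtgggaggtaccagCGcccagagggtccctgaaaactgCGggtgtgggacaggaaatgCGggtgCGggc
Cstf2t: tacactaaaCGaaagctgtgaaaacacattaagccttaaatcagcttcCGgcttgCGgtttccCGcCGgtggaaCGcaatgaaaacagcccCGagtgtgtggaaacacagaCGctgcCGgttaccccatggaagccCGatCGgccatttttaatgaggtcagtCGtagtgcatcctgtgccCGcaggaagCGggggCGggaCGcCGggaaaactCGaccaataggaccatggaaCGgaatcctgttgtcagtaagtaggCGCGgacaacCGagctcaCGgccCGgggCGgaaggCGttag

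Next are the pairs in which the parent alone had a row, each retrogene followed by its parent, at chr17:40208560-40208859 (minus), chrX:106186850-106187149 (plus), chr3:141212306-141212605 (minus) and chrX:160138381-160138680 (minus).
Pgk2: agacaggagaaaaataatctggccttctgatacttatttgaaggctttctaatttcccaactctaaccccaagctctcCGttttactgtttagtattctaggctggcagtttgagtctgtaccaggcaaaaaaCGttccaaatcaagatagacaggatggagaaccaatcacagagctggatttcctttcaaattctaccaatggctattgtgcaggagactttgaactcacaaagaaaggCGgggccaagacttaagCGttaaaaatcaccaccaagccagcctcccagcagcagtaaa
Pgk1: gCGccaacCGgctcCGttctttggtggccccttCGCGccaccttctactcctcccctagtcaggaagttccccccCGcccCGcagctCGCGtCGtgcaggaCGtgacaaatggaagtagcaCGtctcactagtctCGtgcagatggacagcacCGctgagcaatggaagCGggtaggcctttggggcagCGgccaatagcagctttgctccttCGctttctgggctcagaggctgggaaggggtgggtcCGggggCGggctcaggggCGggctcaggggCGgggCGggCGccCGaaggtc
Pdha2: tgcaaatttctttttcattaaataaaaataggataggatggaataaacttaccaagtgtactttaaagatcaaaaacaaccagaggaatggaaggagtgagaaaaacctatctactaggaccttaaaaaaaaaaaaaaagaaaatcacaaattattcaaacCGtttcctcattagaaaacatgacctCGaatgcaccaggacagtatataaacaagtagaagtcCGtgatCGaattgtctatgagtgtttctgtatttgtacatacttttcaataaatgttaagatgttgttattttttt
Pdha1: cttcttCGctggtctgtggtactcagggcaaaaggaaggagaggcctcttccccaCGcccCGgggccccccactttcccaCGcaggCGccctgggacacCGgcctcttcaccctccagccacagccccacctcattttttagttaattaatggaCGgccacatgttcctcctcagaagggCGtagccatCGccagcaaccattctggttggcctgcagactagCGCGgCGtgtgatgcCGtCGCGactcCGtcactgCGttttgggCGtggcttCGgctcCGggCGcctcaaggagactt

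The 3 retrogenes with a row had 26 to 40 CpG in the window and a GC content of 56.7 to 75.0%, and the 4 without had 4 to 13 CpG and 29.7 to 52.0%. These ranges did not overlap, though they rest on 3 and 4 genes, and Cstf2t is counted for a row outside its window. All autosomal protein-coding windows were instead split by whether a cKO row overlapped the window itself. Those with one had a median of 26 CpG and 65.3% GC, and the others 8 CpG and 54%. Of the retrogenes, Utp14b had the most CpG, 40, in a window set on its start at 78658440, which the region did not reach. Of that window, 143 bp lay in the region. Rbmxl2 had 29, and 150 bp of its window lay in the region. Cstf2t had 26 and none of its window in the region, whose own sequence had 9 CpG in 399 bp. Rpl10l had 13 CpG and Cetn1 11, and Pgk2 and Pdha2 had 4 each. For Cetn1, which is missing from the RefSeq windows used, the window was taken at its GENCODE start, and its sequence is not shown.

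The CpG ratio, the number of CpG over that expected from the C and G of the window, gave another order. It was 1.08 at Cstf2t, 1.02 at Utp14b, 0.82 at Rbmxl2, 0.64 at Rpl10l, 0.61 at Pdha2, 0.60 at Cetn1 and 0.29 at Pgk2. The value of Pdha2 rests on 4 CpG in a window with a GC content of 29.7%. Over all autosomal protein-coding genes a cKO row overlapped 42.4% of windows with a ratio of at least 0.6 and 3.24% of those with a lower ratio. On the X these shares were 29.0% and 4.40%. Counted the other way, 92.6% of autosomal windows with a row and 36.3% of those without had a ratio of at least 0.6. The part of CpG and GC content in which retrogenes had a row was not tested.

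The parents differed less in these measures. Those with a row had 21 to 24 CpG and a GC content of 61.0 to 66.7%, and those without had 11 to 21 CpG and 47.0 to 57.3%. Pgk1 had 24 CpG, with 257 bp of its window in the region, and a ratio of 0.72. Utp14a had a higher ratio, 0.94, and no row. The ranges of CpG met at 21, with Pdha1 on one side and Utp14a on the other, and those of GC content did not overlap. The median over all X-linked protein-coding windows was 8 CpG and 52.3% GC.

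**Figure D4:**
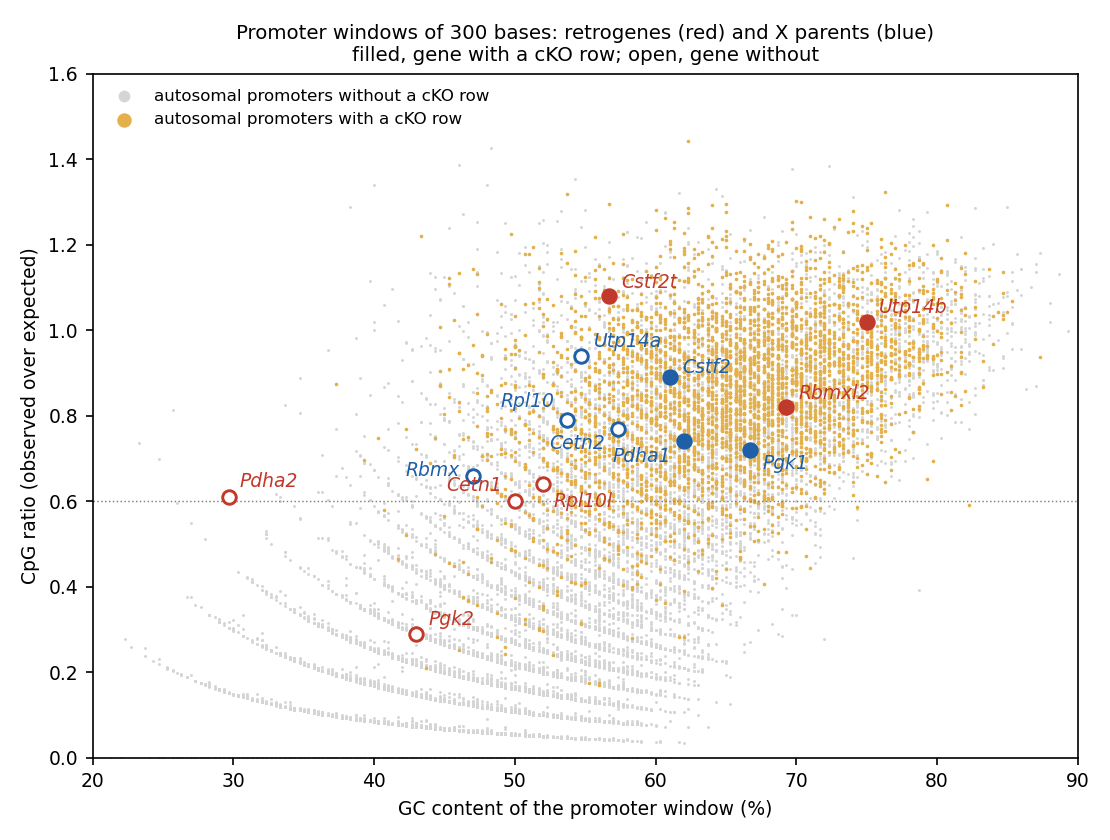
GC content (x axis, percent) and CpG ratio (y axis, observed over expected) of promoter windows of 300 bases. Small points are autosomal protein-coding genes, coloured where a cKO row overlaps the window, and the dotted line is at 0.6. Large points are retrogenes (red) and X parents (blue), filled where the gene had a cKO row. The filled points lie at a GC content of 56.7% or more, and the open red points at 52.0% or less. The open blue points lie at 47.0 to 57.3%, so that filled and open points overlap. Cstf2t is filled for the row in its gene, as none of its window lies in a region.

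The windows were also searched for motifs of factors known from testis promoters and for general promoter elements. CAACTG, the core bound by MYB proteins such as the meiotic regulator A-MYB, was found on either strand in the window of 1 of 7 retrogenes, Cetn1, and 1 of 7 parents, Utp14a, and in 12.0% of autosomal and 21.1% of X coding windows. TGACGTCA, the full cAMP response element, was in none of the 14 windows and in 2.30% of autosomal and 1.36% of X ones. CCAAT was in 3 retrogene windows, those of Pgk2, Cstf2t and Rbmxl2, and in 5 parent windows, against 38.1% of autosomal and 46.3% of X ones. TATAAA was in those of Pdha2 and Rbmx, against 12.7% and 11.6%.

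The retrogenes also differ from their parents in structure. Of the 7, 5 have a single exon in every coding transcript, Pgk2, Pdha2, Rpl10l, Cstf2t and Rbmxl2, and 2 of these had a cKO row. Over all 1190 autosomal single-exon coding genes the share with a row was 14.3%, and 17.7% where the 228 chemoreceptor genes among them, none of which had a row, were left out. The proteins were 64.1% (Utp14b) to 98.6% (Rpl10l) identical to those of the parents, with 64.6% at Cstf2t, 75.1% at Rbmxl2, 76.7% at Pdha2, 81.4% at Cetn1 and 83.7% at Pgk2.

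A read that fits both copies of a gene has no single place, so the copies of 50-mers, the length of the reads, were counted. In the intervals searched, 0 of the 50-mers of any retrogene occurred in the interval of its parent. The share of 50-mers that occurred once in the genome was 86.1% at Rpl10l and 96.8 to 100% at the other retrogenes. It was 98.8% at Pgk2, 99.1% at Pdha2 and 97.8% at Cetn1, which had no row. Among the parents the share was lowest at Rpl10, with 85.0%.

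A further list of 15 autosomal copies of X genes was examined in the same way, and 4 had a cKO row, a count near the 30.9% of all autosomal protein-coding genes. Rps4l, a ribosomal protein copy that GENCODE annotates as a transcribed processed pseudogene, had the highest fold, 5.86. Rpl36al, of the large ribosomal subunit, had 4.96 over a start it shares within 1 kb with Mgat2. Mcts2, a copy of a translation re-initiation factor gene within H13, had 4.37, and Rbmxl1, another copy of Rbmx, had 3.93 within 1 kb of a start of Slc10a7. No row lay at Gk2, Gykl1, G6pd2, Prps1l1, Rpl39l, Ubl4b, Fam50b, Timm8a2, Rnf113a2, Zrsr1 or Cox7b2. The copies with a row had 13 to 42 CpG in the promoter window, and the 11 without had 1 to 17. These ranges overlapped, at Rps4l with 13 and at Rnf113a2 and Rpl39l with 14 and 17. The windows of Rps4l, Rnf113a2, Gykl1 and Prps1l1 were taken at GENCODE starts, as that of Cetn1 was. With the retrogenes, 7 of 22 copies had a cKO row, again near that 30.9%. Rps4l is not among the protein-coding genes behind that share, and with protein-coding transcripts only, 3 of the 15 further copies had a row. In Arid1a WT none of the 22 copies had a row, where 0.00961% of autosomal protein-coding genes had one.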

How the data were processed

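H3.3 was profiled by CUT&RUN in spermatocytes of both genotypes. The authors aligned trimmed reads with bowtie2 (mm10) and discarded duplicates with Picard. They called broad peaks with MACS2 against a rabbit IgG library of another study and overlapped the peaks of the replicates. Per the study's methods, the IgG library came from pachytene-enriched cells of juvenile testes, whereas the H3.3 libraries came from adults. The deposited fold is the ratio of H3.3 pileup to the IgG background. The deposited -log10 q is the negative log10 of the adjusted p-value of the peak, so that a larger value is a smaller p-value. All rows of a peak name carried 1 fold and 1 -log10 q in each of 6540 cKO peak names. Other columns were not used, and 0 per-sample columns were unmatched.

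Rows overlapping by at least 1 bp were merged into regions, and coordinates were made 1-based. Genes were counted where a row touched the gene of GENCODE M21 or 1 kb either side of a transcript start. Proteins were translated from the longest coding sequence and aligned globally (BLOSUM62, Biopython 1.88). Copies of 50-mers were counted on both strands of GRCm38.p6. Promoter windows were taken from RefSeq, and 13 of the 14 genes were matched. A simulation with 2000 genes of a single start each recovered all rows planted near a start, which checks the code and not the counts. Groups were taken from the labels, and the members and lists were chosen with earlier results of these data known. Named genes were the retrogenes, their parents, the hosts or neighbours of their regions and the 15 further copies with their X relatives. Alternatives covered the window, the overlap rule, -log10 q, support by a second row and the transcripts. Scripts ran in Python 3.11.15 with numpy 2.4.6, numba 0.67.0 and matplotlib 3.10.9.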

Additional observations from a re-analysis of the deposited data

How the results depend on the processing

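No paired analysis was possible because the replicates of a genotype are combined in its list, and leaving out a replicate could not be done either. The counts of retrogenes (3) and parents (3) with a cKO row held under other windows, the centre of the row and other transcript sets. Rows with a -log10 q of at least 3 left 1 retrogene, Rbmxl2, and 2 parents, Pgk1 and Cstf2, and those of at least 5 left 1 retrogene, again Rbmxl2, and 0 parents. The background shares fell with them, to 21.6% and 9.88% of autosomal coding genes, 12.1% and 2.43% of X coding genes and 8.32% and 3.28% of autosomal single-exon genes, by construction. The autosomal share was 29.5% within 1 kb of a start only and 28.1% with rows that overlap another, where Cstf2t was lost. With curated RefSeq transcripts the single-exon share was 6.96%, where 62.3% of those genes are chemoreceptors against 19.2% in GENCODE, and the row at Rps4l could not be counted. The fold of each retrogene region was the same in all its rows. The share of unique sequence at the retrogenes was 75.7 to 99.9% with 36-mers and 95.6 to 100% with 100-mers, and identity over the shorter protein was 66.6 to 98.6%. Depth is unknown, which limits any reading of a gene without a row.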

Other observations

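Of the 14 X relatives of the 15 further copies, 3 had a cKO row, a count near the 21.2% of all X-linked protein-coding genes. They were Gk (glycerol kinase, fold 3.17), Ubl4a (fold 3.49, a region over its start that also covers sequence of Slc10a3) and Rnf113a1 (fold 2.91, a region that ends 24 bp before its start, next to Ndufa1). With curated RefSeq transcripts Ubl4a had no row, which left 2 of 14, and rows with a -log10 q of 3 or more left 0 of 14. No pair of a further copy and its X relative had a row at both, 4 pairs had one at the copy alone, 4 at the X gene alone and 7 at neither. Rbmx is the parent of both Rbmxl2 and Rbmxl1, and both copies had a row where Rbmx had none.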
